A study of Oryza sativa with 6 samples.

Results

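The peroxidase gene cluster on chromosome 1 of rice comprised 5 loci of the Rice Annotation Project, Os01g0326000, Os01g0326100, Os01g0326300, Os01g0327100 and Os01g0327400. The members had been selected on their measured Hg over control ratios on these arrays, so those ratios, their intervals and the counts of members that met the rule for a call are given below as a description. No p-value is given for a member. All 5 loci had a probe, and together they had 10 probes of 1 spot each, out of 29690 loci and 41908 probes with a locus name. Each probe carried the name of a full-length cDNA, by which it is called here.

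Rice seedlings (Oryza sativa L. cv. TN-67) aged 6 days were exposed to mercury (Hg), and RNA of their roots was hybridised against RNA of roots kept in water. Short-term exposure was a pool of RNA from 1 and 3 h of Hg treatment, and long-term exposure lasted 24 h. Each exposure had 3 arrays, labelled as biological replicates, and every array held Hg-treated RNA in the Cy5 channel and control RNA in the Cy3 channel. The Hg dose was 25 µM in the study's methods and 25 mM in the sample labels, and the labels named roots where the methods named root tips. The sources did not state how long each control was kept in water, how many seedlings made a replicate, or whether controls were shared between arrays. Because Hg was always in Cy5, a bias between the dyes enters every ratio. In bulk roots, fewer cells of a type and less RNA per cell cannot be told apart.

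Plant haem peroxidases of the secreted class use hydrogen peroxide to oxidise phenolic compounds. In the cell wall they can join lignin precursors and other phenolics into polymers, and they can also produce or consume reactive oxygen species. The genes form a large family in grasses, and many lie side by side on a chromosome as tandem copies. The study's gene table described Os01g0326300 and Os01g0327100 as haem peroxidase family proteins. The sources used here gave no description for Os01g0326000, Os01g0326100 and Os01g0327400, which are counted with the cluster by its working name and their locus numbers. Locus numbers follow position along the chromosome, and the files held no coordinates or genome build.

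Of the 43734 spots per array that were not controls, between 28674 and 34265 were well above background in the control channel and between 29106 and 34927 in the Hg channel. Log2 ratios of 2 arrays correlated at 0.911 to 0.919 within short-term exposure and at 0.885 to 0.929 within long-term exposure, over the tested genes. The 3 long-term arrays shared 1 slide that held no short-term array, so slide and exposure cannot be told apart when exposures are compared. Short-term replicate 1 was alone on its slide and had 1185 outlier spots, against 72 to 354 on the other arrays. No spot of a member was flagged as an outlier. The root genes Lsi1, Lsi2 (silicon transporters) and RCc3 were well above background in both channels of all 6 arrays, RCc3 with control signals of 76193 to 259976. Lsi1 itself had log2 ratios of -1.51 and 1.83 after short-term and long-term exposure. Of 4 leaf markers, none had a signal above 289 in either channel, and their log2 ratios ran from -0.69 to 2.25 and then from -1.12 to 3.24. The highest were those of Os01g0600900, which was not well above background in the control channel of any array and was in the Hg channel of 5, with Hg signals of 29.2 to 73.7. Its ratios resembled those of Os01g0326100 in size and in their unmeasured control, and the part of other tissue in the members' values was not tested.

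By mean ratio to control, 4 of the 5 members were higher in Hg-treated roots at both exposures. Of these, Os01g0326100 had no control signal well above background on any array. Os01g0326000 changed by less than 2-fold. A gene was called where the limma adjusted p was under 0.05 and the mean change was at least 2-fold, with the brightest probe standing for the gene. By this rule, 4 of 5 members were called higher after short-term exposure, where 11.6% of all tested genes were called higher and 8.1% lower. After long-term exposure 4 of 5 were again called higher, against 9.02% of all tested genes called higher and 6.02% lower. Both calls of Os01g0326100 were lost with other processing, given below. Since these ratios chose the members, nothing is read from either count. The median log2 ratio of the members was 2.19 after short-term exposure and 2.40 after long-term exposure, where the medians of all genes were -0.13 and -0.06. With members whose control was not measured set to their lower bound, the medians were 1.65 and 2.05.

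**Figure D1:**
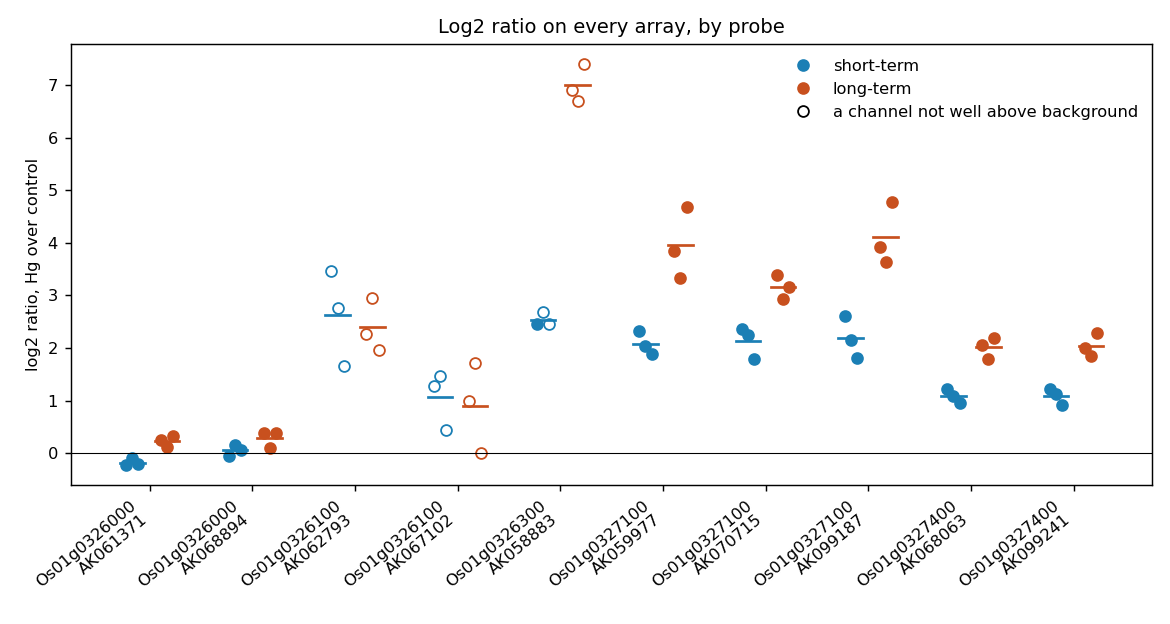
Log2 ratio of Hg over control (vertical axis) for the 10 probes of the cluster (horizontal axis), with 1 point per array and a bar at the mean of 3 arrays. Open points are arrays on which a channel was not well above background, as for all 3 long-term arrays of Os01g0326300, where the ratios ran from 6.70 to 7.40.

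Os01g0327100, a haem peroxidase family gene, was measured above background by 3 probes in both channels of every array. Its brightest probe, AK099187, gave control signals of 1958, 1356 and 1376 and Hg signals of 11854, 6005 and 4859 on short-term replicates 1, 2 and 3. On the long-term arrays the control signals were 899, 852 and 361 and the Hg signals 13646, 10640 and 9908. The Hg signal was above the control signal on all 6 arrays, and no array of one channel reached into the range of the other. The log2 ratios were 2.60, 2.15 and 1.82 after short-term exposure and 3.92, 3.64 and 4.78 after long-term exposure. The lowest long-term ratio was thus above the highest short-term ratio. The mean log2 ratio was 2.19 (SE 0.24, n = 3), a 4.56-fold higher level, after short-term exposure and 4.12 (SE 0.24, n = 3), or 17.3-fold, after long-term exposure. Here and below, SEs of mean ratios come from the limma fit, which pooled the spread over both exposures. The n is the number of arrays in a mean.

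The other probes of Os01g0327100 gave the same order of exposures. AK059977 had log2 ratios of 2.33, 2.03 and 1.89 after short-term exposure and 3.84, 3.33 and 4.69 after long-term exposure, within 0.31 of AK099187 on every array. AK070715, with control signals of only 29.4 to 81.6, had 2.37, 2.25 and 1.79 and then 3.38, 2.94 and 3.17. After long-term exposure it lay up to 1.61 below AK099187 on the log2 scale, while after short-term exposure the gap was at most 0.23. The size of the long-term ratio of Os01g0327100 therefore differed between probes, from a mean fold of 8.96 for AK070715 to 17.3 for AK099187. The call after short-term exposure was lost with the methods' own test in place of limma, with the mean at 2.19 in both.

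Os01g0327400, the last member in locus order, was the member with the closest agreement between probes and had high signals throughout. Its brightest probe, AK099241, gave control signals of 3243, 2985 and 2147 after short-term exposure and 3450, 3051 and 2360 after long-term exposure. The Hg signals were 7569, 6510 and 4059 and then 13881, 10948 and 11523. Control signals of the exposures overlapped, and all long-term Hg signals were above all short-term ones. The log2 ratios were 1.22, 1.13 and 0.92 after short-term exposure and 2.01, 1.84 and 2.29 after long-term exposure, with no overlap. The mean was 1.09 (SE 0.11, n = 3), or 2.13-fold, after short-term exposure and 2.05 (SE 0.11, n = 3), or 4.13-fold, after long-term exposure. The second probe, AK068063, lay within 0.10 of AK099241 on every array.

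Os01g0326300, the other haem peroxidase family gene, had the greatest increase in Hg level of the members between the exposures on the log2 scale, and its control was hardly measurable. Its only probe, AK058883, gave Hg signals of 285, 124 and 55.7 after short-term exposure and 633, 1174 and 1152 after long-term exposure, all well above background. The control signals were 52.0, 19.2 and 10.2 and then 5.29, 11.3 and 6.84, and only that of short-term replicate 1 was well above background. Every Hg signal was above every control signal, and the long-term Hg signals were all above the short-term ones. The log2 ratios were 2.45, 2.69 and 2.45 after short-term exposure and 6.90, 6.70 and 7.40 after long-term exposure. On the array with both channels measured, short-term replicate 1, the ratio was 2.45.

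The mean log2 ratio of Os01g0326300 was 2.53 (SE 0.14, n = 3) after short-term exposure and 7.0 (SE 0.14, n = 3) after long-term exposure. The SDs over the 3 arrays of each exposure were 0.14 and 0.36. The long-term mean ranked first of all 21842 genes tested, but its denominator was not measured. A gene was tested where a signal of its probe reached the minimum of 100 on any array. AK058883 reached it only in the Hg channel, as its highest control signal was 52. The rank thus holds only among genes that passed this filter, which a high Hg signal alone can meet. With the signals scaled between arrays and the control set to the lowest signal that was well above background on each long-term array, 17.7 to 21.1, the gene was at least 40.9-fold higher with Hg. Without scaling it was at least 38.1-fold higher. These bounds hold only for that floor, which is the lowest flagged spot of an array and no detection limit. With normexp background correction and loess the same bound was at least 10.6-fold, and the means were 1.14 and 3.60. The direction and both calls stayed, and the size of the change depended on how the background was removed.

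Os01g0326100 was the dimmest member. Its brighter probe, AK062793, annotated to a UTR, gave Hg signals of 324, 45.2 and 44.8 after short-term exposure and 36.1, 65.6 and 27.2 after long-term exposure. It was well above background in the Hg channel on short-term replicates 1 and 2 and long-term replicate 2 only. The control signals, 29.6, 6.61 and 14.2 and then 7.50, 8.41 and 6.97, were not well above background on any array. Short-term replicate 1 stood apart in the Hg channel, while the other 5 arrays lay between 27.2 and 65.6. The log2 ratios were 3.46, 2.77 and 1.65 after short-term exposure and 2.27, 2.96 and 1.97 after long-term exposure, and the exposures overlapped.

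Against the lowest measured signals, the same bound for Os01g0326100 was at least 3.14-fold after short-term exposure and at least 1.83-fold after long-term exposure, or 2.78-fold and 1.61-fold without scaling. These bounds include Hg signals that were themselves not well above background on 1 of 3 short-term and 2 of 3 long-term arrays. The fitted means of 2.63 and 2.40 (SE 0.34 each, n = 3) were called, with SDs over the arrays of 0.91 and 0.51. AK062793 reached the minimum signal of 100 only in the Hg channel of short-term replicate 1. The gene was thus tested at both exposures only through that value. Both calls were lost with normexp and loess, at 0.99 and 0.43, where the bounds were at least 1.73-fold and 1.20-fold. They were also lost with the methods' own test. The second probe, AK067102, was not well above background in either channel of any array and was the 1 member probe of 10 that did not reach the minimum signal of 100. Its log2 ratios ran from 0.00 to 1.71, between 1.21 and 2.19 below those of AK062793 on the same arrays.

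Os01g0326000, the first member in locus order, was measured above background on every array, and neither exposure passed the rule for a call. Its brighter probe, AK061371, gave control signals of 296, 344 and 222 and Hg signals of 252, 321 and 193 after short-term exposure. After long-term exposure the control signals were 397, 482 and 431 and the Hg signals 474, 522 and 541. The Hg signal was below control on all short-term arrays and above it on all long-term arrays. The log2 ratios were -0.23, -0.10 and -0.20 and then 0.26, 0.12 and 0.33, with means of -0.18 and 0.23 (SE 0.07 each, n = 3). The second probe, AK068894, gave -0.05, 0.16 and 0.06 and then 0.39, 0.10 and 0.39, so the sign after short-term exposure differed between the probes and their arrays.

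**Figure D2:**
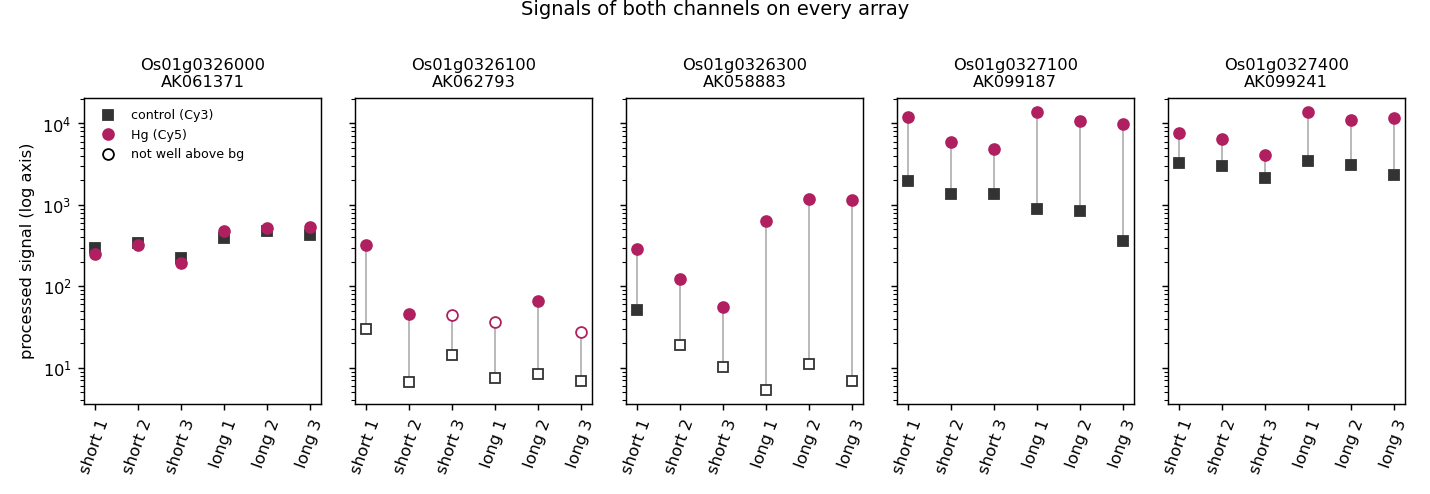
Processed signal in the control channel (squares) and the Hg channel (circles) on a log axis, for the brightest probe of each member on the 6 arrays, with short-term replicates before long-term ones. Open symbols were not well above background, and for Os01g0327100 the control squares after long-term exposure (361 to 899) lie below those after short-term exposure (1356 to 1958).

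The order of the members by ratio differed between the exposures. After short-term exposure Os01g0326100, Os01g0326300 and Os01g0327100 had means of 2.63, 2.53 and 2.19. The first of these rests on controls not well above background, as does the second on 2 of 3 arrays, so their order is not settled. Os01g0327400 followed at 1.09, with its highest array at 1.22 below the lowest of Os01g0327100 at 1.82. With normexp and loess Os01g0327400 was at 1.21, above Os01g0326100 at 0.99 and Os01g0326300 at 1.14, and Os01g0327100 was at 2.21. After long-term exposure Os01g0326300 came first, with an unmeasured control, and then Os01g0327100, with no overlap between their arrays. With normexp and loess this order was reversed, at 3.60 for Os01g0326300 and 3.90 for Os01g0327100, so it depended on the processing. Os01g0326100 at 2.40 and Os01g0327400 at 2.05 overlapped, and Os01g0326000 was last at both exposures. The highest short-term ratio fell on replicate 1 for 6 of the 10 probes and on replicate 3 for 0, and the highest long-term ratio fell on replicate 3 for 6.

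The exposures were compared directly as the long-term minus the short-term log2 ratio. Os01g0326300 differed by 4.47 (SE 0.19, 95% interval 4.0 to 4.93) and Os01g0327100 by 1.93 (SE 0.33, 1.13 to 2.73), and these 2 of 5 members met the rule for a higher call, as did 9.23% of all genes, while 10.1% met it for a lower call. The same ratios chose the members, so nothing is read from this count. Os01g0327400 differed by 0.96 (SE 0.15, 0.60 to 1.32), a 1.94-fold change just short of the fold threshold. Without short-term replicate 1 it was 1.02 and without long-term replicate 2 it was 1.06, and it was then called. Os01g0326000 differed by 0.41 (SE 0.10, 0.17 to 0.65). Os01g0326100 differed by -0.23, with an interval of -1.39 to 0.93 that left either direction. For Os01g0326300 none of the long-term controls and 1 of 3 short-term controls was well above background, and with normexp and loess its difference was 2.46. The other probes of Os01g0327100 differed by 1.87 (AK059977) and 1.02 (AK070715) between exposures.

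For 4 of 5 members the long-term ratios lay above the short-term ratios without overlap, as they did for 33.2% of all genes compared. A ratio can move through either channel, so each channel was also followed alone as the log2 signal over the array's 75th percentile. The Hg level was higher after long-term exposure without overlap for 2 of 5 members, Os01g0326000 and Os01g0326300, against 36.8% of genes. The control level was lower without overlap for 2 of 5, Os01g0326300 and Os01g0327100, against 25% of genes. With 5 members, a count of 2 is near either share, and the control of Os01g0326300 was below measurement.

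In Os01g0327100 the control level was lower after long-term exposure for each probe, while the Hg level differed in sign between probes and scalings. For AK099187 the control level differed by -1.72 (SE 0.52) between exposures and the Hg level by 0.23 (SE 0.46), with the Hg levels overlapping. For AK070715 the control level differed by -1.22 (SE 0.30) and the Hg level by -0.18 (SE 0.20). For AK059977 both channels moved, with the control at -0.90 (SE 0.54) and Hg at 0.99 (SE 0.35). The control difference stayed negative for all 3 probes when the signals were scaled to the array median (-1.88, -1.38 and -1.06 in the same order) or left unscaled (-1.24, -0.74 and -0.42). Unscaled, of these probes only AK099187 kept the control ranges apart. In the same order, the Hg difference was 0.07, -0.33 and 0.83 with median scaling and 0.69, 0.28 and 1.45 unscaled, the last without overlap between exposures.

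The Hg level of Os01g0326300 differed by 2.46 (SE 0.66) between exposures, and by 2.31 or 2.92 with median scaling or none. For AK099241 of Os01g0327400 the Hg level differed by 0.58 (SE 0.28) and the control level by -0.39 (SE 0.26), with overlapping arrays in both. With median scaling these were 0.43 and -0.55, and unscaled they were 1.04 and 0.09, so which channel of Os01g0327400 moved more depended on the scaling. Slide moved with exposure in all of these level comparisons, and its part was not tested.

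The loci with a probe around the cluster comprised 10 on each side and Os01g0327000, which was the only one between members. Of these 21 loci 14 were tested, and the other 7 did not reach the minimum signal. After short-term exposure none of the 14 was called in either direction by limma, against 11.6% of all tested genes higher and 8.1% lower. At changes below 2-fold, 6 of the 14 had an adjusted p, and the same number an unadjusted p, under 0.05. After long-term exposure 2 were called higher and none lower by limma, against 9.02% and 6.02% of all tested genes. An unadjusted limma p under 0.05 was reached by 10. The share of all genes under that p is not given here, so nothing is read from these counts. Os01g0327000, for which the sources gave no description, had a mean log2 ratio of 0.74 after short-term exposure (adjusted p = 0.0013, under 2-fold) and 1.11 after long-term exposure (limma adjusted p = 0.000408, SE 0.11). Os01g0323400, before the cluster, had 0.81 and 1.11 (adjusted p = 0.000213 after long-term exposure). The median log2 ratio of the tested neighbours was 0.01 after short-term and -0.16 after long-term exposure. For the difference between exposures 1 neighbour, Os01g0323000, was called lower, at -1.04, as were 10.1% of all genes.

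**Figure D3:**
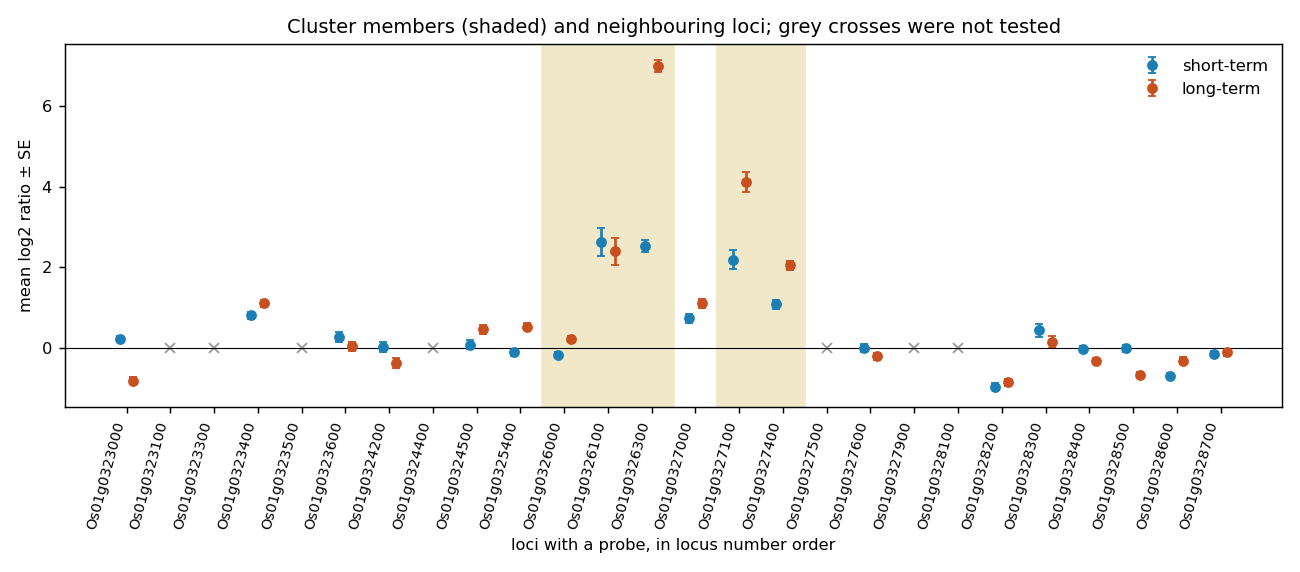
Mean log2 ratio with its SE (vertical axis) for the members (shaded) and the neighbouring loci in locus number order (horizontal axis), after short-term and long-term exposure. Tested neighbours stayed between -0.96 and 1.11, Os01g0326000 at the edge of the cluster lay in that range too, and the long-term value of Os01g0326300 and both values of Os01g0326100 rest on an unmeasured control, as does the short-term value of Os01g0326300 on 2 of 3 arrays.

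Among the other 28 peroxidase genes of the study's table, which the study had chosen on these same arrays, both directions occurred. After short-term exposure 14 were called higher and 10 lower, and after long-term exposure 16 were higher and 7 lower, 11 of them higher at both. Their median log2 ratios were 1.00 and 1.5. The members of the cluster thus lay inside the spread of this list after short-term exposure, which ran from -3.02 for Os12g0191500 to 5.30 for Os04g0688300. After long-term exposure the list ran from -2.26 for Os09g0323900 to 5.13 (SE 0.46) for Os07g0677600, and of the members Os01g0326300 exceeded it, at 7.0 as fitted. With its control at the lowest measured signals it was at 5.35. That value is on scaled signals, unlike the list, and too close to 5.13 to set an order. With normexp and loess it was at 3.60, and the list is not given with that processing.

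**Figure D4:**
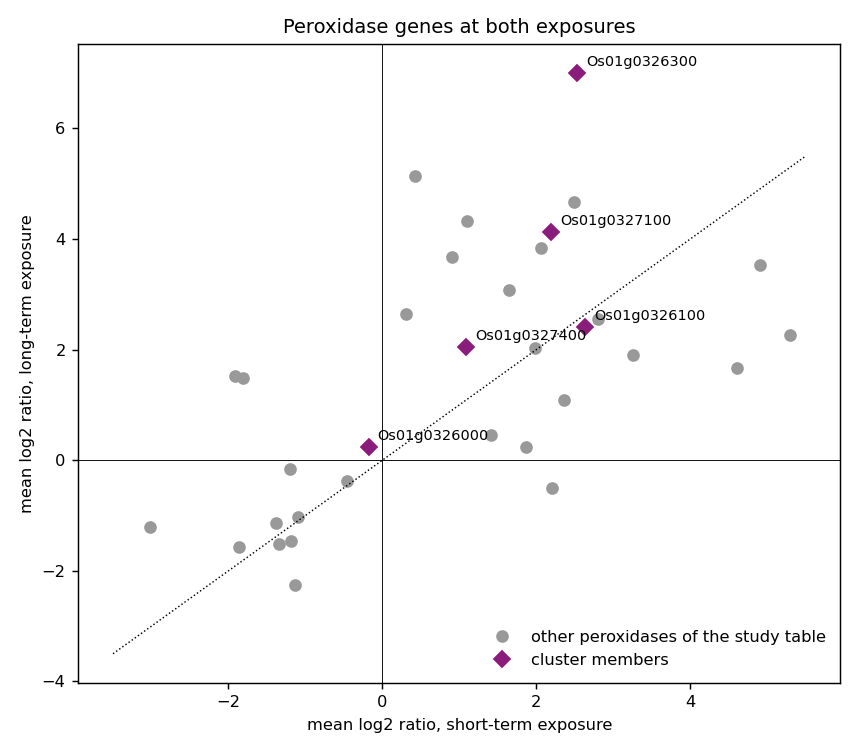
Mean log2 ratio after short-term exposure (horizontal axis) and long-term exposure (vertical axis) for the 5 members (diamonds) and the other 28 peroxidase genes of the study's table (grey points). Points above the dotted line had the higher ratio after long-term exposure, and of the members only Os01g0326100 lies below it.

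Other runs of neighbouring loci that hold peroxidases of the table were set beside the cluster. Their counts include loci that the table did not describe as peroxidases. Over all tested genes, 11.6% were called higher and 8.1% lower after short-term exposure, and 9.02% and 6.02% after long-term exposure. For the difference between exposures the shares were 9.23% and 10.1%. On chromosome 4, 2 of 4 tested loci were called higher at each exposure, and 1 was called lower for the difference. This was Os04g0688300, with 5.30 after short-term and 2.27 after long-term exposure, the reverse of the order in Os01g0327100. On chromosome 5, 2 of 7 tested loci were higher after short-term exposure, and 1 was higher and 3 were lower after long-term exposure. The study's table described the 2 higher loci as peroxidases and did not so describe the 3 lower ones. For the difference, 4 of the 7 were called lower. On chromosome 7, 2 of 5 tested loci were called higher and 2 lower after short-term exposure, and 4 were higher after long-term exposure. For the difference, 4 of the 5 were called higher, as were Os01g0326300 and Os01g0327100. Os07g0677600 went from 0.42 to 5.13. Its short-term value had 0 arrays well above background in the Hg channel and 1 in the control channel.

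The genes closest to each member were found by the distance between their log2 ratios over the 6 arrays, among 21032 other genes. Os11g0474800 was nearest to Os01g0327100, with means of 1.85 and 4.19 after short-term and long-term exposure, a distance of 0.63 and Pearson's r of 1.00. Os06g0676700 was nearest to Os01g0327400, with 1.07 and 1.98 and a distance of 0.27. The nearest gene to Os01g0326300, Os04g0607600, lay at a distance of 2.70 with means of 2.80 and 5.78, and none of its 6 control signals was well above background. The nearest genes to Os01g0326100 and Os01g0326000 were Os03g0154000 at 1.04 and Os03g0367800 at 0.12. All these arrays had Hg in Cy5, and the long-term arrays shared a slide apart from the short-term ones. The correlations are descriptions over 6 arrays that include both exposures.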

How the data were processed

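The authors scanned 2-colour Agilent 4×44K rice arrays and deposited the output of Agilent Feature Extraction 10.7.1.1. Per the file headers, its processed signals are intensity values after background subtraction and dye normalization, and its log ratio is log10 of Cy5 over Cy3. The deposited series table held the log2 ratio of the same processed signals (100% of values within 0.01). Log ratios were multiplied by 3.32 to give log2 of Hg over control. Outlier spots were left out, spots of a probe were averaged, and probes were kept where a signal reached 100 on any array, as in the methods. The brightest probe stood for a locus. A model with 1 coefficient per exposure was fitted to all 6 arrays with limma 3.58.1 in R 4.3.3, and p-values were adjusted by Benjamini-Hochberg over all genes. Genes were called at an adjusted p under 0.05 and at least 2-fold. The SE of a fitted ratio used limma's variance, pooled over the 6 arrays and moderated across genes. It is therefore not the SE of the arrays of 1 exposure. The SE of a channel level difference was computed from the arrays of that probe alone, without pooling. The fit was tested on simulated data, where it recovered 174 of 200 changed genes at short-term exposure with 3 false calls among 21843 genes. The simulation used independent normal noise at each gene's own spread and 1 fixed shift. It held no unmeasured control, dye bias or slide effect, so it tells nothing about calls that these affect.

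Bounds ("at least"), on signals after loess within and Aquantile scaling between arrays, set the mean log2 Hg signal against the mean of, per array, the higher of the lowest well-measured control signal and the probe's own. The lowest well-measured signal is an extreme over spots and no detection limit, so a bound holds only for that floor. For AK062793 the floor was the higher value on 2 of 3 short-term arrays, so a control not well above background can exceed it. The files held median and not mean spot signals, so the normexp alternative (offset 50) used medians. Other alternatives were the t-test of the methods, other filters, centring, probe means, slide or replicate number as a block, and each array left out. The named genes were all members, neighbours called at either exposure, the extremes of the other peroxidases and of 3 other locus ranges, and the nearest genes. The members, lists and rules were chosen with earlier results of these data known. Replicates were labelled biological, and precision is limited by the number of arrays. The reference table used here paired no Rice Annotation Project locus with a name.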

Additional observations from a re-analysis of the deposited data

Results flagged for a closer look

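The log2 ratio of 2 members differed between the exposures in the fit across all genes. The members had been selected on these ratios, so this is a description and no independent test of them. Os01g0326300 had a log2 ratio 4.47 higher after long-term than after short-term exposure, where none of the long-term controls and 1 of 3 short-term controls was well above background. Os01g0327100 had a log2 ratio 1.93 higher by AK099187, and leaving out single arrays moved this value between 1.60 and 2.16. Its other probes gave 1.87 (AK059977) and 1.02 (AK070715), so the size differed between probes.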

How the results depend on the processing

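The count of members called at short-term exposure was 4, and 2 with the methods' t-test, in which Os01g0326100 and Os01g0327100 were lost; at long-term exposure it was 4 and then 3. Normexp with loess left 3 members at each exposure. Leaving out single arrays kept 4 members at each exposure and gave 2 to 3 for the difference between exposures. Without short-term replicate 1, Os01g0326100 was still tested and called, at 2.21 after short-term exposure. The highest signal of AK062793 on the remaining arrays was 65.6, below the minimum signal. The gene thus stayed among the tested genes only through the array left out. For this member, these counts cannot show whether its calls depended on that array. With a replicate block, 2 members were called for the difference, as without it, and no member changed its call. Whether same-numbered arrays shared a batch was not stated. Their deviations correlated at -0.23, 0.02 and -0.18, which cannot settle it with 3 arrays per exposure and the exposures on different slides. Slide as a random block left 4, 4 and 2. No member called in the reported fit changed sign in any alternative.

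Over all genes, normexp with loess called 442 in place of 1767 lower at short-term exposure, 532 in place of 1315 lower at long-term exposure and 1144 in place of 2014 higher for the difference. The methods' t-test called 1053 higher and 582 lower at short-term exposure, and 911 higher and 812 lower at long-term exposure. The cause was not tested. Scaling of single channels by the median or not at all, and bounds without scaling, were chosen after seeing the data. Low signal over background limits Os01g0326100 and the control of Os01g0326300, and 3 arrays per exposure limit the rest.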
